A study of Homo sapiens with 8 samples.

Results

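Matrix metalloproteinases (MMPs), their tissue inhibitors (TIMPs) and basigin (BSG) were followed in MHCC-97H, an established line from a human liver cancer (hepatocellular carcinoma), kept for 24 hours with the kinase inhibitor lenvatinib or with the solvent DMSO. The members were taken by gene symbol: MMP28, MMP14, MMP15, MMP1, MMP2, MMP7, TIMP1, TIMP2, TIMP3 and BSG, which are 10 of the 20263 genes in the deposited table. BSG is neither a protease nor a TIMP, but a surface glycoprotein known as an inducer of MMPs. Controls were 4 DMSO libraries, numbered 1 to 4, and each lenvatinib dose (40, 60, 80 and 100 µM) had 1 library. Both groups are the same line, and the sources used here do not say whether the DMSO libraries came from separate cultures, so p-values reflect no more than how these libraries vary, and that variation may be technical. The members were chosen by symbol, with the measured lenvatinib-to-DMSO fold changes of their counts in view, so that difference is described for the members and not tested.

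MMPs are zinc-dependent endopeptidases that cleave collagens, other matrix proteins and surface receptors. They are made as inactive proenzymes, in which a cysteine of the propeptide blocks the catalytic zinc, and are switched on by furin-like convertases, plasmin or other MMPs. TIMPs bind the active site of the mature enzymes, and in the liver the balance between both families is best known from scar turnover and from invasion of tumour cells.

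All the MMP members share the catalytic site in which 3 histidines hold the zinc ion. Its coding sequence is shown because every MMP member carries this site. It also shows how far MMP28 stands from the others there. Among the members with enough reads to be fitted, MMP28 had the largest fold change between the arms. The 33 bases were located in GENCODE v29 transcripts on GRCh38, are printed 5′ to 3′ on the coding strand, and carry the codons of the 3 histidines in capitals. They lie in a coding exon, which is exon 5 in every gene shown except MMP2, where it is exon 8.
MMP28, chr17:35770167-35770199, minus strand: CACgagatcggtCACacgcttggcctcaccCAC
MMP1, chr11:102795549-102795581, minus strand: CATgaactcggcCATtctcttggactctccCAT
MMP15, chr16:58040563-58040595, plus strand: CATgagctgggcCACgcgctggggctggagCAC
MMP14, chr14:22843283-22843315, plus strand: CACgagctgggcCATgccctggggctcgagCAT
MMP2, chr16:55491827-55491859, plus strand: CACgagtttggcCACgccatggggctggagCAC
MMP7, chr11:102523343-102523375, minus strand: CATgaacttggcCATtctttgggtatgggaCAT
Compared base by base with MMP28, 23 of the 33 bases were the same in MMP1, 22 in MMP15, 21 in MMP14, 21 in MMP2 and 16 in MMP7. A site of this form was found in all 23 MMP genes that were searched.

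The libraries held between 10181973 (60 µM) and 37384578 (80 µM) counts, and genes with a read numbered 11076 at 60 µM and 13290 to 14340 elsewhere. Libraries also differed along the GC content of genes. For each library a GC slope was taken, the log2 gain of its genes over the 8-library mean for every 10 points of GC percent. It ran from -0.99 to 0.28 in DMSO and, from the lowest to the highest dose, was 0.67, 1.82, -0.58 and -0.60. Values below are therefore given from a fit without this slope and from a GC-adjusted fit that holds it as a covariate. Of the liver tumour markers, KRT8 and KRT18 were abundant, while EPCAM had 125 reads in all and GPC3 had no read. ALB, AFP, APOA1, TF and KRT19 had 6, 2, 10, 4 and 4 reads, all in the 60 µM library. Of the markers of other cells, COL1A2 (fibroblasts), KDR (endothelium), PTPRC and CD163 (blood cells) had no read. In contrast, COL1A1, PDGFRB, DCN and ACTA2 of the fibroblast list had 7853, 8051, 3652 and 2744 reads in all. VWF of the endothelial list had 394, and HBA1, CD68 and CSF1R of the blood list had 1957, 1579 and 316. The summed CPM of the fibroblast, endothelial and blood lists was 82.7 to 94.7, 1.63 to 2.68 and 11.0 to 37.8 in DMSO against 73.0 to 114, 0 to 4.23 and 5.04 to 34.0 with lenvatinib. Of the 8 blood markers, 3 were tested, and HBA1, CD68 and CSF1R were called lower in the GC-adjusted fit. So were 211 (1.78%) of all 11827 tested genes, and calls of that fit moved widely with the settings, as given below. The part of these markers in the results was not tested.

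In the DMSO controls the members spanned several orders of magnitude in level. Levels between genes are given on the deposited TPM scale, which corrects for gene length. These levels, and the sums and shares of TPM below, were not adjusted for the GC slope. BSG stood at 2130 ± 164 (SD, n = 4 DMSO libraries), TIMP1 at 618 ± 165 and TIMP2 at 128 ± 61.8. MMP15 at 32.6 ± 2.25 and TIMP3 at 30.6 ± 4.59 TPM did not differ beyond their spread. MMP28 followed at 5.02 ± 0.997 and MMP7 at 0.593 ± 0.121. MMP2, MMP14 and MMP1 had a mean of 0.0442, 0.0295 and 0.0155 TPM and no read in at least 1 DMSO library, so their order was not resolved. The summed TPM of the 4 TIMP genes, most of it TIMP1, was 4.43 to 6.63 times that of the 23 MMP genes in DMSO and 4.66 to 5.84 times with lenvatinib, and the ranges overlapped.

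MMP28 (epilysin), a secreted MMP with a furin cleavage site in its propeptide, had the largest fold change of the members with enough reads to be fitted. The gene (ENSG00000271447) lies at chr17:35756249-35795707 on the minus strand of GRCh38, as the deposited table gives it. Its reads numbered 165, 129, 130 and 150 in DMSO libraries 1 to 4 and 591, 208, 691 and 543 at 40, 60, 80 and 100 µM. Scaled to library totals, these were 5.11, 4.21, 4.13 and 4.38 CPM in the controls and 19.6, 20.4, 18.5 and 15.6 CPM under lenvatinib. Every lenvatinib library lay above every DMSO library on this scale, on TPM and after TMM scaling, the normalization of the fits.

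The size of the MMP28 difference depended on the scale. After TMM scaling the DMSO libraries held 5.98, 3.62, 3.12 and 4.46 CPM and the lenvatinib libraries 25.3, 33.5, 14.4 and 12.3 CPM, with means of 4.30 ± 1.25 and 21.4 ± 9.87 (SD, n = 4 each), a ratio of 4.97. On library totals the means were 4.46 ± 0.446 and 18.5 ± 2.10 CPM, a ratio of 4.16, and on TPM 5.02 ± 0.997 and 18.8 ± 1.61, a ratio of 3.75. The spread within lenvatinib on the TMM scale came from the 40 and 60 µM libraries, which also had the steepest GC slopes. The log2 fold change was 2.31 ± 0.46 (SE) without the covariate and 1.85 ± 0.16 with it.

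**Figure D1:**
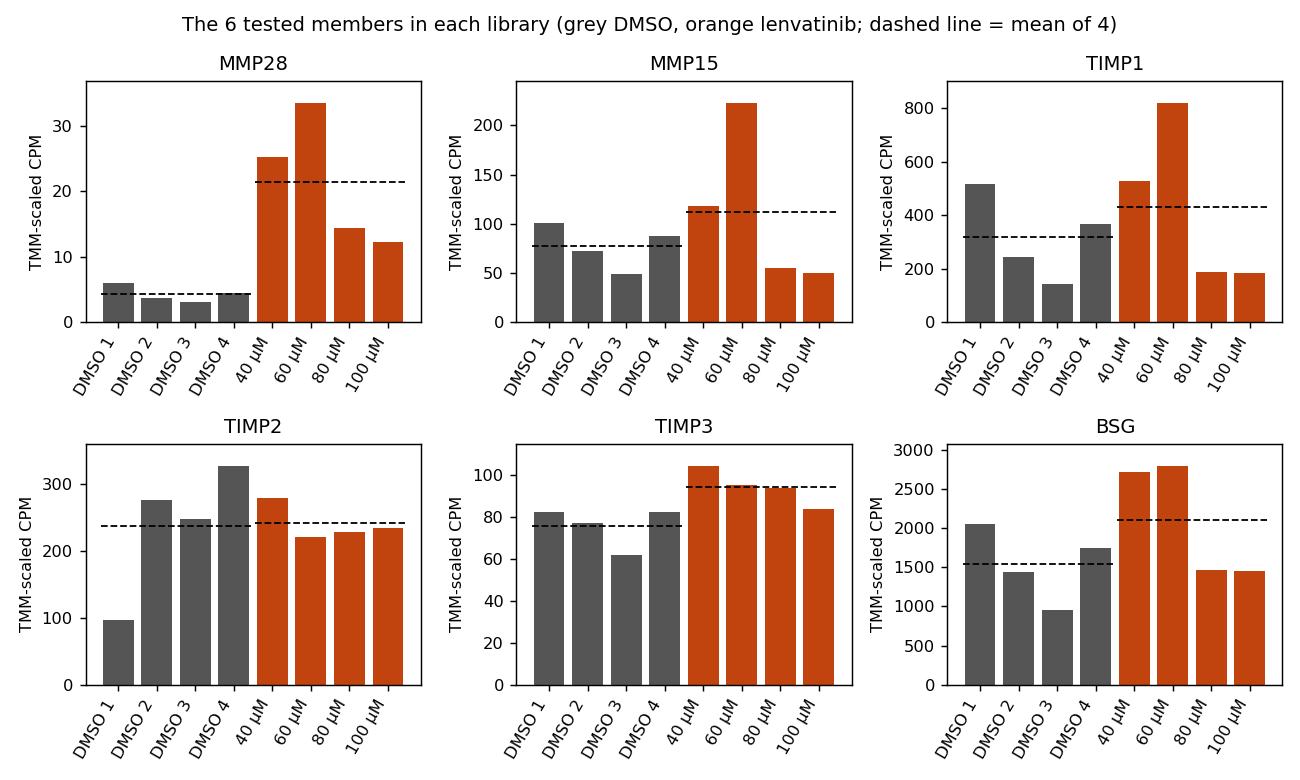
TMM-scaled CPM (vertical axis, starting at 0, scaled separately for each gene) of the 6 members above the count filter in each of the 8 libraries, with DMSO in grey, lenvatinib in orange and the arm mean dashed. MMP28 is at 3.12 to 5.98 CPM in DMSO and 12.3 to 33.5 CPM with lenvatinib, whereas MMP15, TIMP1 and BSG are high in the 40 and 60 µM libraries and overlap between arms.

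Of the 10 members, 6 averaged 1 CPM or more and entered the fits (MMP28, MMP15, TIMP1, TIMP2, TIMP3 and BSG), and MMP1, MMP2, MMP7 and MMP14 did not. Without the covariate edgeR called 0 of the members at an adjusted p of 0.05, as it called 0 of all 11827 genes (0%), of which 523 had an unadjusted p under 0.05. DESeq2 called 94 genes, with MMP28 the only member among them, and limma-voom 0. The GC-adjusted fit called 386 genes (3.26%), 175 higher (1.48%) and 211 lower (1.78%), and MMP28 was the only member among them. In 3 of the 17 alternatives to this fit, named at the end, TIMP1 was called lower and TIMP3 higher. Since the members were chosen with this contrast known, nothing is read from these counts. Without the 80 µM library MMP28 was not among the called genes, with a log2 fold change of 1.79. The members' median log2 fold change was 0.44 without and 0.10 with the covariate, against -0.11 and -0.06 over all genes tested.

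MMP15 (MT2-MMP), a membrane-anchored protease, was the only other protease among the members with more than a few reads per library. It lies at chr16:58025566-58046901 on the plus strand. Its TMM-scaled level was 101, 72.3, 49.1 and 87.3 CPM in DMSO libraries 1 to 4 and 118, 223, 55.4 and 50.4 CPM from 40 to 100 µM. The 40 and 60 µM libraries were above every DMSO library, and the 80 and 100 µM libraries were in the lower part of the DMSO range. The log2 fold change was 0.53 ± 0.51 without the covariate and -0.25 ± 0.10 with it, so its direction turned with the adjustment, and it was -0.52 without the covariate when only 80 and 100 µM were compared with DMSO.

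The other protease members were barely read. MMP7 (matrilysin), a small secreted MMP without a hemopexin domain, lies at chr11:102520508-102530753 on the minus strand and had 11, 15, 11 and 14 reads in DMSO and 2, 0, 2 and 7 with lenvatinib. Each lenvatinib library was below each DMSO library, and the pooled reads were 51 against 11, or 0.396 against 0.0979 CPM. The ratio of these pooled values was 0.247. The ratio of the arm means, the measure given for MMP28, was 0.190 after TMM scaling, 0.202 on library totals and 0.194 on TPM. These ratios are descriptions.

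MMP14 (MT1-MMP), the membrane protease that activates pro-MMP2, had 0, 4, 0 and 5 reads in DMSO and 0, 2, 4 and 2 with lenvatinib. MMP2 (gelatinase A) had 0, 6, 2 and 4 reads against 0, 2, 0 and 4. MMP1 (interstitial collagenase) had 2 reads, in DMSO library 3 only. A difference in these 3 genes was not detectable at this depth, at which a count of 0 allows up to 3 counts, or 0.0802 to 0.295 CPM. MMP14 lies at chr14:22836557-22847761, MMP2 at chr16:55389700-55506691 and MMP1 at chr11:102789920-102798160.

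**Figure D2:**
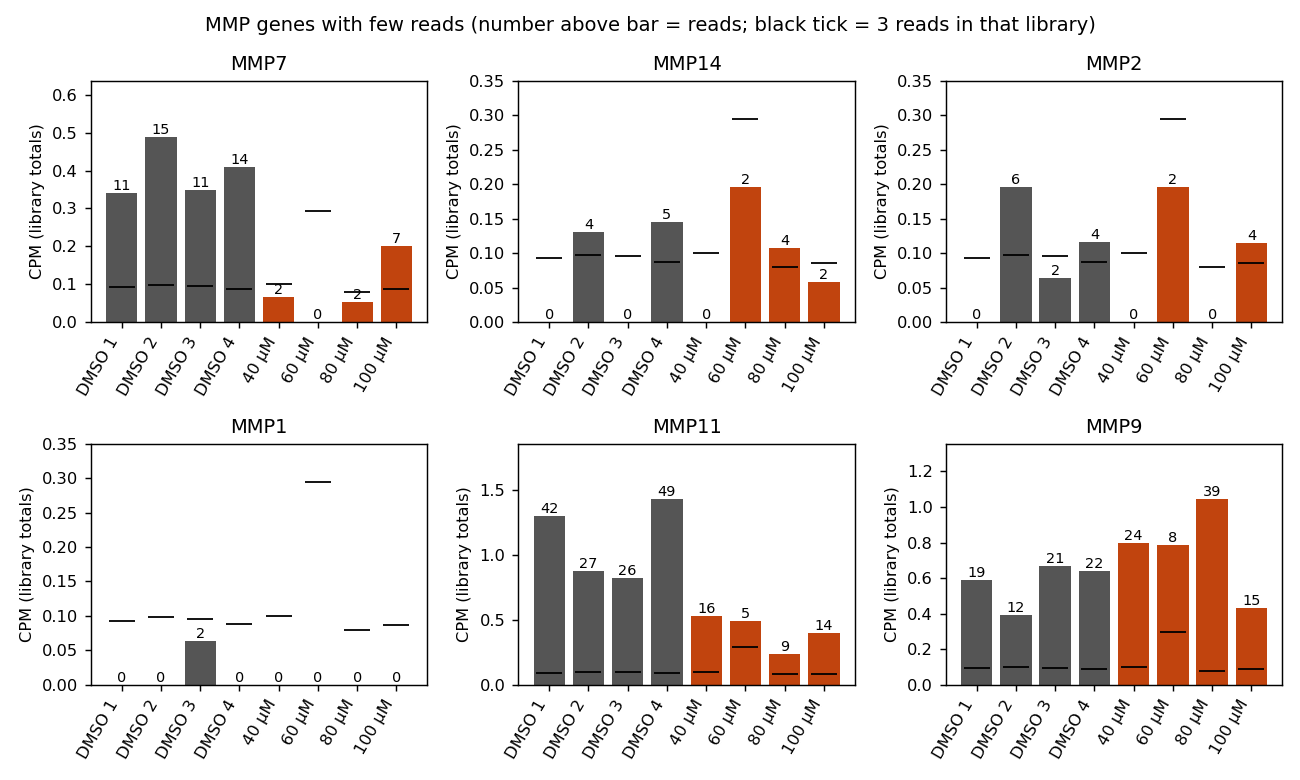
CPM on library totals (vertical axis, starting at 0) of MMP genes with few reads in the 4 DMSO (grey) and 4 lenvatinib (orange) libraries, with the number of reads over each bar and a black tick at the level of 3 reads in that library. MMP7 has 11 to 15 reads in DMSO and 0 to 7 with lenvatinib, while MMP14, MMP2 and MMP1 have at most 6 in any library.

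The MMP7 promoter is shown because the AP-1 factors that are known to drive MMP genes are in a group counted below. ETS factors are in the same group, but no ETS motif was searched for. A link between this promoter and those factors was not tested. It is the RefSeq sequence (GRCh38.p14) at chr11:102530754-102530997, 5′ to 3′ on the minus strand, and ends 6 bases short of the RefSeq start site, with an AP-1 motif (TGAGTCA) and a TATA box (TATAAA) in capitals.
MMP7: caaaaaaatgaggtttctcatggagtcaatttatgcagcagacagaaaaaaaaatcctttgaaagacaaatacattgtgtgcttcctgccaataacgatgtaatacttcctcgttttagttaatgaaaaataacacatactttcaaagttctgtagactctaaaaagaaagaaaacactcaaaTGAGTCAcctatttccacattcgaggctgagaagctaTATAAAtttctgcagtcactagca
The AP-1 motif is 67 to 61 bases and the TATA box 30 to 25 bases upstream of that start site. RefSeq promoters were matched for 6 members (MMP7, MMP14, MMP15, TIMP1, TIMP3 and BSG) and not for MMP28, MMP1, MMP2 and TIMP2. Each was searched over the 250 bases upstream for TGAGTCA (both strands), the antioxidant response core TGACNNNGC (both strands), the GC box GGGCGG (both strands) and TATAAA (gene strand), which occur in 4.20%, 10.9%, 42.6% and 6.80% of 35116 promoters. MMP7 was the only one of the 6 with TGAGTCA or TATAAA. MMP15 and TIMP3 held 5 GC boxes each, TIMP1 held 2, MMP14 held 1 and BSG none. In MMP15 and TIMP1, only the first 62 and 127 of the 250 bases lay before any exon annotated in GENCODE v29. Some GC boxes of both lay past that point, while those of TIMP3 and MMP14 lay before any such exon. A match describes letters in this window and not a bound site.

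TIMP1, a secreted inhibitor of most soluble MMPs, was the highest of the inhibitors and varied widely among the controls. It lies at chrX:47582313-47586789 on the plus strand. Its TMM-scaled level was 517, 242, 144 and 368 CPM in DMSO and 527, 819, 188 and 184 CPM from 40 to 100 µM. The arms overlapped, and the 80 and 100 µM libraries lay between DMSO libraries 3 and 2. The log2 fold change was 0.43 ± 0.59 without the covariate, -0.38 ± 0.17 with it, and -0.74 without the covariate when only 80 and 100 µM were compared with DMSO.

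TIMP2, which inhibits MMP2 and also takes part in its activation at the cell surface by MMP14, lies at chr17:78852977-78925387 on the minus strand. Its TMM-scaled level was 96.3, 275, 247 and 327 CPM in the controls and 279, 221, 228 and 234 CPM under lenvatinib. The lenvatinib libraries were close together, and DMSO library 1 was below all others, at 2658 reads against 9795 to 10983 in the other DMSO libraries. The log2 fold change was 0.03 ± 0.37 without the covariate and 0.10 ± 0.36 with it, and without DMSO library 1 it was -0.23 and -0.27. The sign also turned without the covariate on library totals (-0.16) and without the 40 µM library (-0.05), and with the covariate when only 80 and 100 µM were compared with DMSO (-0.15). Without DMSO library 4 the GC-adjusted value was 0.41.

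TIMP3, an inhibitor that stays bound to the matrix and also blocks ADAM17, lies at chr22:32801701-32863043 on the plus strand. It had a TMM-scaled level of 82.4, 77.1, 61.7 and 82.5 CPM in the controls and 105, 95.1, 94.0 and 84.0 CPM under lenvatinib. No lenvatinib value fell within the control range, though the one at 100 µM was just over the highest control. On library totals the arms overlapped, at 70.4 to 89.6 CPM in DMSO against 81.3, 58.0, 120 and 107 CPM from 40 to 100 µM. The log2 fold change was 0.31 ± 0.22 without the covariate and 0.25 ± 0.12 with it. With MMP28, TIMP3 was 1 of 2 members above DMSO in every lenvatinib library on the TMM scale, as were 364 (3.08%) of all tested genes, and 400 (3.38%) were below in every one, so that 6.46% did not overlap either way; from this count too nothing is read.

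BSG (CD147, or EMMPRIN) is the most abundant member. It lies at chr19:571277-583493 on the plus strand. Its TMM-scaled level was 2051, 1436, 955 and 1740 CPM in the controls and 2713, 2795, 1463 and 1455 CPM under lenvatinib. The 40 and 60 µM libraries exceeded every control, and the 80 and 100 µM libraries lay inside the DMSO range. The log2 fold change was 0.45 ± 0.37 without the covariate, 0.10 ± 0.17 with it and -0.05 without the covariate when only 80 and 100 µM were compared with DMSO.

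**Figure D3:**
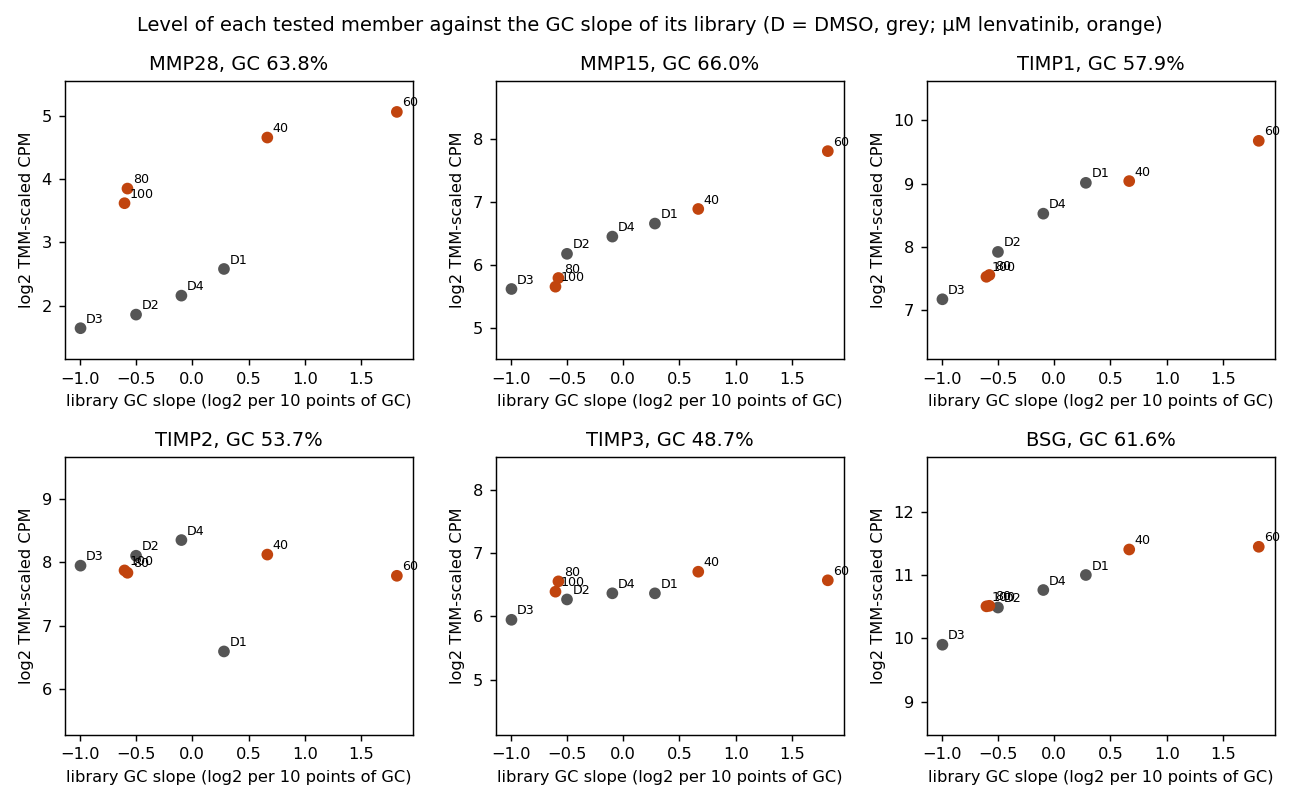
Level of each tested member (log2 TMM-scaled CPM, vertical axis, the same span in each panel) against the GC slope of its library (log2 per 10 percentage points of GC, horizontal axis), with DMSO libraries in grey and lenvatinib libraries in orange. MMP15, TIMP1 and BSG climb with the slope in both arms. The 80 and 100 µM points of MMP15 and TIMP1 lie below DMSO library 2, which has a slope near theirs. Those of BSG lie close to that library. The MMP28 points of lenvatinib lie above those of DMSO at like slopes.

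The members' levels moved with the libraries' GC slope to different extents. Over the 8 libraries, which share this slope with all other genes, Pearson's r between log2 CPM and the slope was 0.982 for MMP15, 0.949 for TIMP1, 0.919 for BSG, 0.709 for MMP28, 0.642 for TIMP3 and -0.167 for TIMP2. These values are descriptions. The longest transcripts of MMP15, MMP28 and BSG have a GC content of 66.0%, 63.8% and 61.6%, those of TIMP1, TIMP2 and TIMP3 57.9%, 53.7% and 48.7%, and the median tested gene has 49.1%. In the controls alone and on TMM-scaled CPM, DMSO library 3, which had the lowest slope (-0.99), held the lowest level of MMP28, MMP15, TIMP1, TIMP3 and BSG. DMSO library 1, with the highest slope (0.28), held the highest level of MMP28, MMP15, TIMP1 and BSG. On deposited TPM, DMSO library 3 instead held the highest MMP28 (6.50) and TIMP3 (34.2).

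Whether the members changed with dose was tested within lenvatinib, a contrast other than the one in view when they were chosen. It draws on the same lenvatinib counts. Slopes are log2 changes per 20 µM. MMP28 had a slope of -0.45 ± 0.26 (SE) without the covariate (edgeR adjusted p = 0.295) and -0.10 ± 0.12 with it (edgeR adjusted p = 0.994). Without the covariate TIMP1 had a slope of -0.71 ± 0.35, MMP15 of -0.63 ± 0.30 and BSG of -0.36 ± 0.21, each with an edgeR adjusted p of 0.295, and TIMP3 and TIMP2 were at -0.10 ± 0.14 and -0.07 ± 0.24. With the covariate the 6 slopes lay between -0.23 (TIMP2) and -0.05 (TIMP3). None of the 6 passed the test in either fit, nor did any of the 11827 genes (0%) with edgeR; 875 genes without and 287 with the covariate had an unadjusted p under 0.05, and DESeq2 called 131 and 14, with no member among them. The members' median slope was -0.41 without and -0.07 with the covariate, against 0.06 and -0.06 over all tested genes. All 6 slopes were negative in both fits, but the share of all genes with a negative slope was not taken, so nothing is read from this count. With 1 library a dose, a dose and its library cannot be told apart. The library GC slope also ran with dose, at 0.67, 1.82, -0.58 and -0.60 from 40 to 100 µM. Dose and GC slope are therefore not well separated in either fit.

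The share of MMP28 in the summed TPM of the MMP genes gives its level against the rest of the family within each library. MMP28 made up 2.98% to 4.47% in DMSO and 9.12% to 14.6% with lenvatinib, and the ranges did not overlap. Nor did those of MMP24, given below, or of MMP7, which had few reads, at 0.344% to 0.547% and 0% to 0.207%. MMP17 (MT4-MMP) was the largest part in each library, at 40.5% to 48.4% and 40.5% to 56.8%. MMP15 held 20.3% to 25.3% and 19.4% to 23.3%, and MMP24 (MT5-MMP) 23.0% to 28.8% and 8.74% to 20.9%. Reads of MMP24 are uncertain, since MMP24-AS1 overlaps it on the other strand with 23789 reads and the strand of counting is not given in the sources used here. Of the inhibitors, TIMP1 made up 65.1% to 90.0% of the summed TIMP TPM in DMSO and 69.8% to 88.7% with lenvatinib. A share within a library shows unequal change between genes, not which of them changed.

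**Figure D4:**
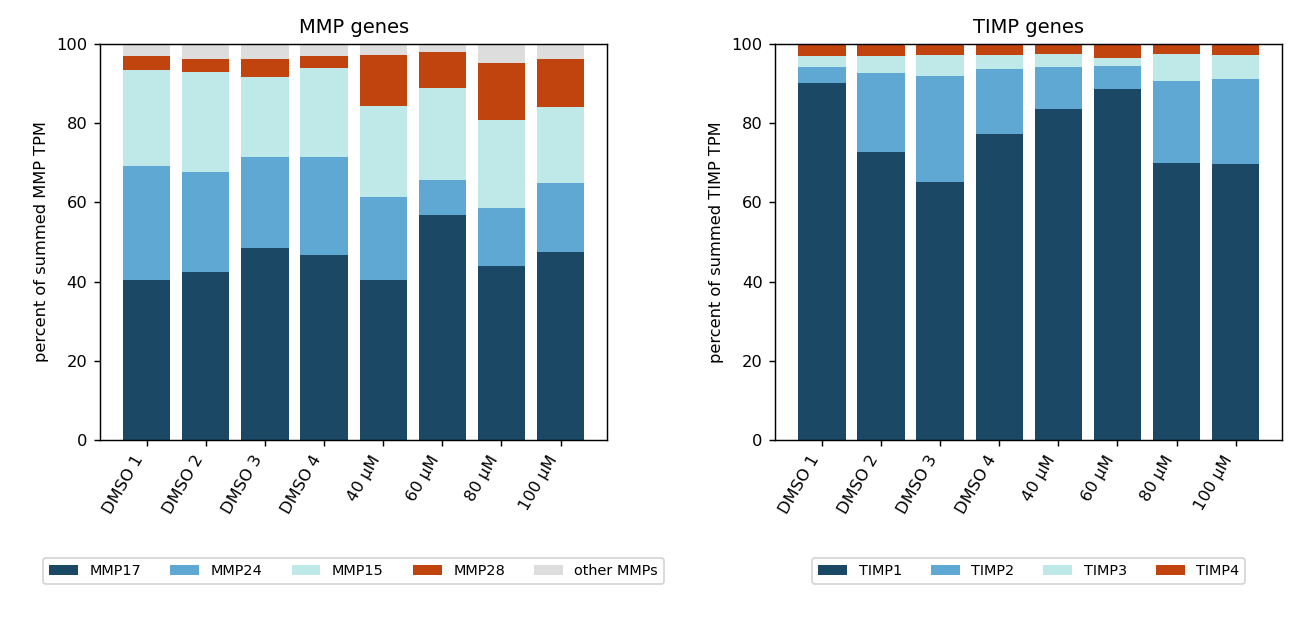
Share of each gene in the summed deposited TPM of the MMP genes (left) and of the TIMP genes (right), in percent from 0 to 100, for each of the 8 libraries. MMP28 takes 2.98% to 4.47% of the MMP sum in DMSO and 9.12% to 14.6% with lenvatinib, and TIMP1 takes the largest part of the TIMP sum in both arms.

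Of the 17 other MMP genes, 9 had no read (MMP3, MMP8, MMP10, MMP12, MMP16, MMP20, MMP21, MMP26 and MMP27) and 5 entered the fits. MMP19, which cleaves basement membrane proteins, was called higher in the GC-adjusted fit. It had 39, 40, 59 and 37 reads in DMSO and 98, 18, 135 and 116 with lenvatinib, or 1.26 ± 0.175 against 3.13 ± 0.714 TMM-scaled CPM, and the arms did not overlap on that scale. They overlapped on library totals, where the highest control had 1.87 and the 60 µM library 1.77 CPM, and on TPM, at 0.796 to 1.56 against 0.696 to 1.71. Its GC-adjusted log2 fold change was 1.25 ± 0.27 (edgeR adjusted p = 0.0479). The call was lost without any 1 of the DMSO libraries and without the 80 or the 100 µM library, with log2 fold changes of 1.20 to 1.37, and also without the count filter (1.26) and with offsets smooth in GC and length (1.45). Over all alternatives its adjusted p ran from 0.000321 to 0.248.

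The GC-adjusted log2 fold changes of MMP17, MMP24, MMP23B and MMP25 were -0.14, -0.75, 0.86 and 0.20, and none was called. MMP23B overlaps CDK11B, so its reads are uncertain. Under the filter, MMP11 (stromelysin-3) had 42, 27, 26 and 49 reads in DMSO and 16, 5, 9 and 14 with lenvatinib, a pooled ratio of 0.350 (exact 95% interval 0.244 to 0.493, counting error only). MMP9 (gelatinase B) had 74 pooled reads against 86, and MMP13 (collagenase-3) had 2 reads, in DMSO.

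The genes around the members were counted in 9 lists of inhibitors, related proteases, activators, substrates and regulators, 117 genes in all, of which 75 were tested. Without the covariate edgeR called 0 of them; DESeq2 called MMP19, PLAU and TGM2 there. In the GC-adjusted fit 1 was higher (MMP19) and 5 were lower (TFPI2, PLAU, TGM2, ETV4 and FOSL1), beside 3.26% of all tested genes. The lists were chosen with earlier results of these data known, and no list is singled out by these counts. The 5 lower calls were each lost when DMSO library 1, DMSO library 4, the 80 µM or the 100 µM library was left out, and with offsets smooth in GC and length in place of the covariate. Calls of PLAU, TFPI2, TGM2 and FOSL1 were also lost without DMSO library 2.

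Among activators of pro-MMPs, 7 of 14 were tested, 1 was called lower and 0 higher, and the median GC-adjusted log2 fold change was -0.37. The called gene was PLAU (urokinase), which turns plasminogen into plasmin, an activator of several pro-MMPs. PLAU had 137, 222, 184 and 206 reads in DMSO and 19, 0, 61 and 47 from 40 to 100 µM, or 5.44 ± 0.891 against 0.788 ± 0.558 TMM-scaled CPM. Each lenvatinib library was below each control. The GC-adjusted log2 fold change was -2.46 ± 0.42 (edgeR adjusted p = 0.0249, and 3.32e-09 to 0.178 over the alternatives).

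The list of other inhibitors held 7 genes (TIMP4, RECK, A2M, SERPINA1, TFPI2, PCOLCE and PCOLCE2), not all of which inhibit metalloproteinases. Of these, 5 were tested and 1 was called lower, with a median of -0.43. TFPI2, a Kunitz-type protease inhibitor of the matrix that blocks plasmin, had 104, 159, 281 and 209 reads in DMSO and 16, 0, 74 and 60 with lenvatinib. Its means were 5.30 ± 1.41 and 0.898 ± 0.704 TMM-scaled CPM without overlap, and the GC-adjusted log2 fold change was -2.17 ± 0.37 (edgeR adjusted p = 0.0254, and 2.57e-09 to 0.181 over the alternatives). TIMP4, the remaining TIMP gene, stood at 22.2 ± 9.20 against 29.6 ± 22.7 CPM, with a log2 fold change of 0.41 without and -0.43 with the covariate, and was not called.

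Among 16 other proteins cleaved at the surface or in the matrix, 10 were tested and 1 was called lower, with a median of -0.14. TGM2, a transglutaminase that crosslinks matrix proteins and is a known substrate of membrane-type MMPs, had 149, 96.2, 65.0 and 129 TMM-scaled CPM in the controls and 55.4, 23.8, 9.99 and 13.0 CPM under lenvatinib. The arms did not overlap. The GC-adjusted log2 fold change was -2.66 ± 0.46 (edgeR adjusted p = 0.0258, and 4.89e-11 to 0.198 over the alternatives).

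Of 13 AP-1 and ETS regulators, 12 were tested, 2 were called lower and 0 higher, with a median of -0.31. ETV4, an ETS factor of the PEA3 group, had 41.2, 21.6, 13.9 and 30.2 CPM in DMSO and 19.2, 36.1, 2.47 and 4.10 CPM from 40 to 100 µM. The arms overlapped, and the 60 µM library was second only to DMSO library 1. The GC-adjusted log2 fold change of ETV4 was -2.32 ± 0.28 (edgeR adjusted p = 0.00888, and 1.52e-17 to 0.299 over the alternatives). FOSL1 (FRA-1), an AP-1 subunit, stood at 14.5 ± 5.52 against 10.4 ± 7.78 CPM, with a GC-adjusted log2 fold change of -1.39 ± 0.22 (edgeR adjusted p = 0.0215, and 1.98e-09 to 0.188 over the alternatives). Without the covariate the values of ETV4 and FOSL1 were -0.80 and -0.49.

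No gene of the other 4 lists was called in the GC-adjusted fit. Of 11 ADAM sheddases and their partners 9 were tested, with a median of 0.04, and the most abundant were ADAM15 at -0.19 and ADAM9 at -0.16. Of 15 ADAMTS proteases 8 were tested, with a median of -0.05, and ADAMTS15 and ADAMTS10 were at -0.51 and 0.42. Among 16 collagens 12 were tested, with a median of 0.21, and COL5A1 and COL4A2 were at -0.60 and 0.24. Of 8 basigin partners 7 were tested, with a median of -0.11; SLC7A5, an amino acid transporter subunit, was at 0.22, and PPIA, the cyclophilin that binds BSG, at 0.02.

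**Figure D5:**
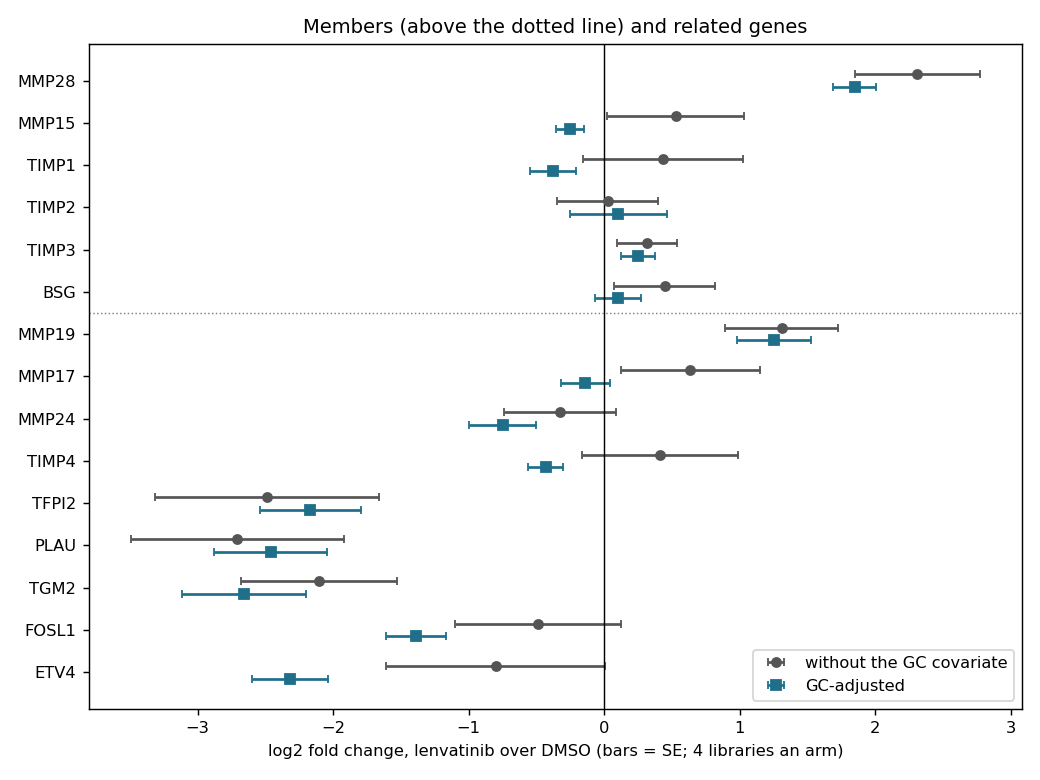
Log2 fold change of lenvatinib over DMSO (horizontal axis, bars are SE, 4 libraries an arm) of the tested members, above the dotted line, and of related genes, without and with the GC slope as a covariate. MMP28 is at 2.31 and 1.85, MMP15 and TIMP1 change sign between the fits, and PLAU, TFPI2 and TGM2 are below -2 in both.

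Genes most like MMP28 and TIMP1, the tested members with the highest and the lowest GC-adjusted log2 fold change, were sought over the 8 libraries on log2 CPM with the GC slope regressed out. For MMP28 these were ALDH3A2 (r = 0.996), BCL6 (r = 0.994) and TMEM8B (r = 0.992). For TIMP1 they were MT2A (r = 0.999), UXT (r = 0.997) and DBNL (r = 0.997). The 8 points are 2 arms of 4 libraries, and the 3 genes are the highest of 11827 in each case, so the values describe the search only.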

How the data were processed

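The deposited table gives whole read counts per gene, TPM and FPKM, per the file headers. The submitters' processing notes name FastQC, HISAT2, StringTie, bedtools and GRCh38; tool versions, strandedness and counting settings were not stated there. The authors' counts were used for all fits, the deposited TPM for levels between genes, and FPKM was not used. Count totals per library limit the precision for genes with few reads. Intervals and floors cover counting error only.

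The members, gene lists, tests and alternatives were chosen with earlier results of these data known. Genes averaging 1 CPM or more were fitted with edgeR 4.0.16 (R 4.3.3; TMM, robust quasi-likelihood), lenvatinib against DMSO with all doses pooled, or with a dose slope within lenvatinib per 20 µM centred at 70 µM, each without and with the library GC slope (longest GENCODE v29 transcript). Benjamini-Hochberg adjusted p-values are over all 11827 genes, called at 0.05. DESeq2 1.42.0 and limma-voom (limma 3.58.1) were alternatives, beside other scalings, filters, a replicate block, offsets in GC and length, and left-out libraries. Of list genes, called ones are named, at most 4 a list, or else the 2 with the highest mean CPM, and the 3 genes most like a member are named by Pearson's r.

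Genes that overlap TIMP1, TIMP2, TIMP3 and MMP28 in the annotation (SYN1, CEP295NL, SYN3 and C17orf50) had 56, 35, 12 and 2 reads in all.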

Additional observations from a re-analysis of the deposited data

Results flagged for a closer look

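In 8 of 72 groups of 4 libraries, the most extreme library lay farther from the rest than Dixon's 95% critical value allows. The groups were the 2 arms, on 3 scales, for the 6 tested members and the 6 called genes of the lists; chance flags about 1 in 20 groups. TIMP2 on library totals was at 82.3 CPM in DMSO library 1 against 320 to 327 CPM in the other controls, and MMP15 was at 65.0 CPM in DMSO library 3 against 84.0 to 86.0 CPM. On deposited TPM, MMP28 was at 6.50 in DMSO library 3 against 4.39 to 4.73 in the other controls, and at 16.4 in the 100 µM library against 19.4 to 19.9 at the other doses. BSG was at 1840 TPM in the 60 µM library against 2565 to 2694 in the other lenvatinib libraries. FOSL1 was at 25.9 TPM in DMSO library 4 against 16.3 to 17.8 in the other controls. TGM2 stood apart in the 40 µM library on both scales, at 43.1 CPM on library totals against 12.8 to 16.5 and at 13.4 TPM against 4.50 to 5.72 at the other doses. On the TMM scale used in the fits no group was set apart in this way.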

How the results depend on the processing

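Counts of called genes in the GC-adjusted comparison, 386 by edgeR, moved widely. They were 2038 with DESeq2 (798 higher, 1240 lower), 830 with limma-voom, 1015 with DESeq2 size factors (362 higher, 653 lower), 674 on library totals (421 higher, 253 lower, with the median over all genes at 0.05 in place of -0.06), 254 without the filter, 2463 with only 80 and 100 µM, and 17 with offsets smooth in GC and length. Leaving out 1 library gave from 0 (without 80 µM) to 2770 calls (without 60 µM): 26, 66, 215 and 18 without DMSO 1 to 4, 1006 without 40 µM and 9 without 100 µM. A replicate block gave 232 calls with the GC slope, no longer with MMP19 (adjusted p = 0.152 with edgeR) or PLAU (adjusted p = 0.0563 with edgeR), and 0 without it. Deviations of same-numbered libraries from their arm's mean correlated at 0.63, -0.46, 0.84 and -0.61, and not every library correlated best with its own number. The deviations were taken without the GC slope, along which the libraries differ. They therefore cannot decide whether the numbers pair the libraries. Without the GC slope DESeq2 called 94 genes and no other alternative any; for the dose slope DESeq2 called 131 without and 14 with it. The causes were not tested. MMP28 kept its direction in all alternatives, at 1.67 to 2.51 without and 1.79 to 1.97 with the covariate. TIMP1 and TIMP3 were called in the GC-adjusted comparison with DESeq2, with only 80 and 100 µM, and without 60 µM. The log2 fold changes there were -0.35, -0.20 and -0.30 for TIMP1 and 0.28, 0.36 and 0.29 for TIMP3. Over all GC-adjusted alternatives TIMP1 ran from -0.45 to -0.10 and TIMP3 from 0.19 to 0.82. Depth limits MMP1, MMP2, MMP7 and MMP14, which had at most 15 reads in a library.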
